A study of Mus musculus with 6 samples.

Results

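The SOX genes examined here are those of the SoxB, SoxC and SoxD subgroups: Sox2 (SoxB), Sox4, Sox11 and Sox12 (SoxC), and Sox5, Sox6 and Sox13 (SoxD). They were picked by gene family and found by matching the Ensembl IDs of the count tables to symbols, which gave 7 genes of the 54109 listed, none missing. RNA-seq covered 6 cultures of Msc80, a line of mouse Schwann cells, all kept in medium with serum and labelled biological replicates. The control cultures have the genotype label Sox10 wt (n = 3). The Sox10ko cultures are Msc80 cells in which Sox10 was inactivated by CRISPR/Cas9 genome editing (n = 3). The labels call them a cell clone and do not say whether the 3 cultures came from 1 clone or several, so the loss of Sox10 and a difference between clones cannot be told apart, and p-values measure the spread between these cultures.

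SOX proteins bind the minor groove of DNA through a high-mobility-group box and bend it. They are sorted into subgroups by the similarity of that box. SoxB factors such as Sox2 keep stem and progenitor cells undifferentiated, and in peripheral nerve Sox2 belongs to immature and injured Schwann cells, where it holds back myelination. SoxC factors are activators found in progenitors and in maturing neurons, and prolonged Sox4 activity is known to delay myelination by Schwann cells. SoxD factors have no activation domain of their own and pair with each other through a coiled coil. In cartilage they help the SoxE factor Sox9, and in oligodendrocyte and melanocyte precursors they hold back Sox9 and Sox10. Sox10, also of subgroup SoxE, is the factor removed here.

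Among the 7 genes, 5 passed the filter on low counts, and all 5 were lower in Sox10ko: Sox13 by 17.6-fold, Sox6 by 10.1-fold, Sox2 by 4.60-fold, Sox5 by 2.13-fold and Sox4 by 1.94-fold. In all 5 the control and Sox10ko libraries did not overlap. The remaining SoxC genes, Sox11 and Sox12, were at or next to 0 reads in every library. Over all 15427 tested genes, 32% were called at a Benjamini-Hochberg adjusted p under 0.05 (edgeR quasi-likelihood test) and 14.7% were called lower. The groups did not overlap in 49.3% of tested genes, and in 23.8% they did so with Sox10ko lower. The median log2 fold change of the 5 genes was -2.20, against 0.02 over all tested genes.

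The libraries held between 32328618 and 41834431 counted reads. Levels are given as CPM, reads scaled to library size after TMM, where 1 read was worth 0.0235 to 0.0300 CPM. Fold changes are Sox10ko over control from the edgeR fit, on the log2 scale with the standard error. Values per library are given in the order of replicates 1, 2 and 3. For Sox10 itself the control libraries gave 606, 627 and 617 CPM and the Sox10ko libraries 82.3, 67.5 and 116 CPM. The latter were 13.3%, 10.9% and 18.9% of the control mean. They are levels of RNA and do not measure Sox10 protein. The Schwann cell markers stood at a summed 5117 to 5922 CPM in control and 482 to 666 CPM in Sox10ko: 8 of the 9 tested of 10 listed were lower, and Gfra3 had 1 control read and 2 in Sox10ko. The list and its lower genes include Sox10, the edited gene. Ngfr made up 2693 to 3237 CPM of the control sum, and Cadm4, which did not pass, 323 to 556 CPM of the Sox10ko sum. Among the other lower markers were Erbb3, a neuregulin receptor (423 against 2.61 CPM), and the cadherin gene Cdh19 (350.7 against 13.6 CPM).

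Promoter sequence is shown for the 3 genes with the largest falls, of which Sox2 and Sox6 hold a SOX-type motif in the window and Sox13 does not. The windows run from 250 bases before to 50 bases after the start given by RefSeq (GRCm38.p6), written 5′ to 3′ on the strand of the gene. Capitals mark matches to any of 8 motifs of 7 bases, NNCAANG with A or T at each N, searched on both strands with overlapping matches counted.
Sox2 (chr3:34649745-34650044, plus strand): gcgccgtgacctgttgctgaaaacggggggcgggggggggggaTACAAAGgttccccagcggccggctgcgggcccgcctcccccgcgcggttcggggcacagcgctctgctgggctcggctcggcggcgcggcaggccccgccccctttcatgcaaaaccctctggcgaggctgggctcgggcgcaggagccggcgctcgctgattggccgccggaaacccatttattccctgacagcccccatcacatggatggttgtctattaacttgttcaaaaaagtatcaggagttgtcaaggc
Sox6 (chr7:116038695-116038994, minus strand): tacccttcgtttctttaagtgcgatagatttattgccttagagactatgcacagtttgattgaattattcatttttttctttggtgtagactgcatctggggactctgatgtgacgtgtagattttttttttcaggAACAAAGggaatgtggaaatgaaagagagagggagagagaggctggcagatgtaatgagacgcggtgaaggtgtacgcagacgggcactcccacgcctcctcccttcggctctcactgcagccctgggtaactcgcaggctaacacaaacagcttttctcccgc
Sox13 (chr1:133424163-133424462, minus strand): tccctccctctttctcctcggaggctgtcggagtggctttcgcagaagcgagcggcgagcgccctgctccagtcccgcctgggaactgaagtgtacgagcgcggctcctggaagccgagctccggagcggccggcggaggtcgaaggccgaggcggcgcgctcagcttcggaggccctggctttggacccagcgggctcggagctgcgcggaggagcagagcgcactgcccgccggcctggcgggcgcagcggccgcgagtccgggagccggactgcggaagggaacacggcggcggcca
At least 1 match was present in 24.6% of the 32851 windows of that length in the RefSeq table. The Sox2 window held 1, TACAAAG, starting 207 bases before the start site, and the Sox6 window shown held AACAAAG 114 bases before its start. RefSeq gives Sox6 5 more windows further into the gene, and each of the 6 held at least 1 match. None of these letters lay in the windows of Sox4, Sox5, Sox11, Sox12 or Sox13. The Sox5 window lies 834.9 kb inside the gene as GENCODE M21 draws it, so it is not the start of the longest Sox5 transcripts. For Sox2 the RefSeq start is at -0.41 kb from that of GENCODE M21, and the window ends before the gene drawn there. In base composition the 3 windows shown differ: G and C make up 73.3% of the Sox13 window, 66.3% of the Sox2 window and 47.0% of the Sox6 window, against a median of 52.7% over all windows. A match is a description of letters and no evidence of binding.

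Sox2 (ENSMUSG00000074637) is a gene of 1 exon and 2057 bases on the plus strand of chromosome 3, from 34650405 to 34652461 in GRCm38. Its control libraries gave 227, 199 and 221 CPM, and its Sox10ko libraries 39.7, 56.8 and 44.0 CPM. Every Sox10ko library was far under every control library, at 18.4%, 26.3% and 20.4% of the control mean. The fall from 215.7 ± 14.5 to 46.8 ± 8.90 CPM (SD, n = 3 per group) exceeded the spread within each group (log2 fold change -2.20 ± 0.15 SE, edgeR adjusted p = 0.000157). In bulk RNA, fewer cells that express a gene and less RNA per cell cannot be told apart, here and for each gene below.

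Sox2 lies inside Sox2ot, a long non-coding gene on the same strand, with which it shares 0 exonic bases. Sox2ot was at 10.7, 6.94 and 9.64 CPM in control and 4.52, 9.58 and 6.16 CPM in Sox10ko. These values overlapped, and the difference did not pass (log2 fold change -0.43, edgeR adjusted p = 0.327). Whether Sox2 and its host gene changed by different amounts was not tested. Among tested genes, the patterns most like that of Sox2 were those of Upp1, a uridine phosphorylase gene, and Fxyd5, of a sodium pump regulator. Their root mean square differences from Sox2 were 0.11 and 0.11 log2 units over the 6 libraries, each gene set to its own control mean.

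The other SoxB genes were close to absent. Sox1 had 11, 6 and 4 reads in the control libraries and 0 in each Sox10ko library, which put it at least 6.95-fold lower against a floor of 3 reads over the group. Sox3 had 0 reads in every library, Sox14 had 8 in control replicate 1 and 1 in Sox10ko, and Sox21 had 1 in Sox10ko. None of the 4 reached the low-count filter. A count of 0 over a group allows up to 0.0257 CPM in control and 0.0258 CPM in Sox10ko, for counting error only. Sox2 was thus the SoxB gene that carried nearly all reads of its subgroup in both groups.

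**Figure D1:**
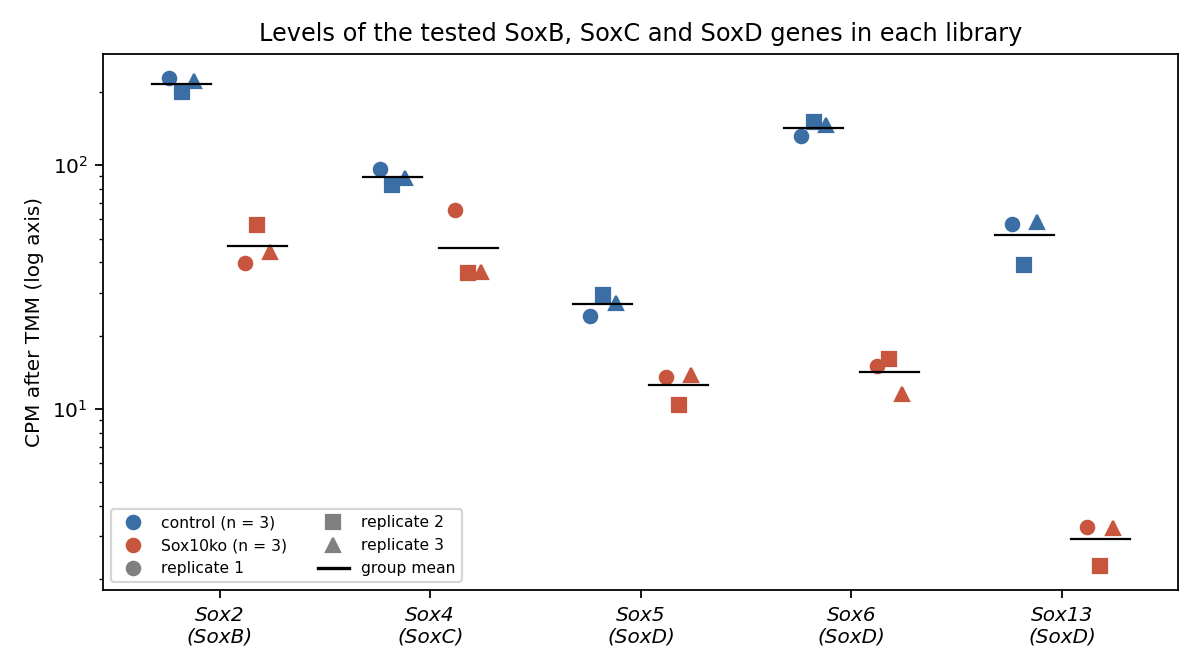
Level of each tested gene in each library, in CPM on a log axis, with control libraries in blue, Sox10ko libraries in red, marker shapes for replicate numbers and a line at each group mean. In all 5 genes the Sox10ko libraries lie under the control libraries, from 82.6 to 65.4 CPM at the closest point in Sox4 to 39.0 against 3.30 CPM in Sox13.

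Of the SoxC genes, Sox4 alone was expressed at a level that could be tested. Sox4 (ENSMUSG00000076431) has 1 exon of 4795 bases on chromosome 13, minus strand, 28948919 to 28953713. It stood at 96.4, 82.6 and 88.6 CPM in control and at 65.4, 36.0 and 36.5 CPM in Sox10ko. Sox10ko replicate 1 kept 73.4% of the control mean, where replicates 2 and 3 kept 40.3% and 40.9%. The fall from 89.2 ± 6.89 to 46.0 ± 16.9 CPM passed the test (log2 fold change -0.96 ± 0.24, edgeR adjusted p = 0.0200). The Sox4 call did not survive the removal of control replicate 1 (edgeR adjusted p = 0.0637), control replicate 3 (adjusted p = 0.0637) or Sox10ko replicate 3 (adjusted p = 0.0515), within a range of 0.000473 to 0.0637 over all alternatives. Without Sox10ko replicate 1 the log2 fold change was -1.31.

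The annotation places Gm26735, a non-coding gene on the opposite strand, over 2616 bases or 54.6% of the Sox4 exon. Gm26735 had 0 reads in all 6 libraries. The strand setting of the counting is not given in the sources used here, and whether reads in the shared bases were set aside was not tested. The patterns nearest to Sox4 were those of Lrrc8d, a gene of volume-regulated anion channels (0.08 log2 units), and the septin gene Sept6 (0.13 log2 units). Both lost their call without control replicate 3 as well (edgeR adjusted p = 0.0625 and 0.0545). They were picked by likeness to Sox4 over these same libraries, so this is no separate support.

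Sox11, a SoxC gene of developing neurons (8311 bases in 1 exon on chromosome 12, 27334264 to 27342574), had 0 control reads and 1 read in Sox10ko replicate 3. Sox12 (ENSMUSG00000051817), the remaining SoxC gene, on chromosome 2 from 152393611 to 152398063, had 1 read in control and 1 in Sox10ko. Neither exceeded what 3 reads over a group allow, and no fold is given. Sox4 was the SoxC gene detected in both groups. Sox4 made up 99.99% of the summed SoxC level per exon length in control and 99.96% in Sox10ko.

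Of the SoxD genes, Sox13 and Sox6 had the largest falls of the 5 tested genes, and Sox5 fell less than Sox2. Sox13 (ENSMUSG00000070643) occupies chromosome 1, minus strand, from 133382303 to 133424377 and has 5 annotated transcripts of up to 14 exons. Its level was 57.3, 39.0 and 58.3 CPM in control and 3.30, 2.28 and 3.24 CPM in Sox10ko. Control replicate 2 was the lowest control library, and still far above every Sox10ko library. The fall from 51.5 ± 10.8 to 2.94 ± 0.573 CPM left 5.70% of the control mean (log2 fold change -4.14 ± 0.23, edgeR adjusted p = 7.67e-05). Only 1.11% of tested genes fell by more. Sox13 is known for binding the Wnt effector TCF1 and for its role in a lineage of T cells.

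Sox6 (ENSMUSG00000051910) occupies chromosome 7, minus strand, from 115470872 to 116038796, with 16 transcripts of up to 17 exons. It was at 131.7, 150.0 and 145.7 CPM in control and at 14.9, 16.1 and 11.5 CPM in Sox10ko. The Sox10ko libraries kept 10.5%, 11.3% and 8.06% of the control mean. The change from 142 ± 9.57 to 14.2 ± 2.38 CPM was far beyond the spread in either group (log2 fold change -3.33 ± 0.15, edgeR adjusted p = 3.99e-05). Sox10ko replicate 3, with the most remaining Sox10 RNA of the 3, had the least Sox6 and the most Sox5. Sox2, Sox4 and Sox13 in that library lay between the other Sox10ko libraries. A link of these levels to the remaining Sox10 RNA was not tested. The antisense gene Sox6os, which shares 0 exonic bases with Sox6, was under the filter, with 18 control reads and 22 Sox10ko reads.

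Sox5 (ENSMUSG00000041540), the closest relative of Sox6, occupies chromosome 6, minus strand, from 143828425 to 144781977, with 14 transcripts of up to 15 exons. It stood at 24.0, 29.3 and 27.2 CPM in control and at 13.6, 10.4 and 13.9 CPM in Sox10ko. The groups were separate, but about 1 log2 unit apart. The fall from 26.8 ± 2.68 to 12.6 ± 1.93 CPM left 46.9% of the control mean (log2 fold change -1.09 ± 0.16, edgeR adjusted p = 0.00225). Of the antisense genes across the Sox5 locus, Sox5os1 shares 1330 bases or 9.25% of the Sox5 exons and had 0 reads, as did Sox5os2 and Sox5os5. Sox5os3 summed to 2 control and 3 Sox10ko reads, and Sox5os4 to 2 and 1.

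Ratios within each library show the make-up of the SoxD subgroup without any scaling. Sox6 to Sox5, as log2 of the read ratio, was 2.46, 2.36 and 2.42 in control and 0.14, 0.63 and -0.27 in Sox10ko. The mean ratio dropped by 2.24 log2 units, or 4.74-fold, with no overlap (exact two-sided permutation p = 0.1, the smallest that 3 against 3 libraries can give; 0.15 after adjustment over 3 pairs, exact permutation). Sox13 to Sox5 was 1.25, 0.41 and 1.10 in control and -2.04, -2.18 and -2.09 in Sox10ko, a drop by 3.03 log2 units with the same exact permutation p = 0.1 (adjusted 0.15). Sox6 to Sox13 moved by 0.78 log2 units, from 1.49 ± 0.40 to 2.27 ± 0.50 (SD, n = 3), and its groups overlapped (exact permutation p = 0.2, adjusted 0.2). With 3 libraries a group this test cannot pass 0.05.

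Per kilobase of annotated exon, Sox5 was 8.04% ± 1.38 of the SoxD sum in the control libraries and 34.8% ± 3.88 in the Sox10ko libraries (SD, n = 3), without overlap. Sox13 was 42.7% to 55.7% in control and 22.6% to 30.2% in Sox10ko, and Sox6 overlapped at 37.3% to 47.7% and 31.1% to 46.4%. The sum itself went from 23.4 ± 2.05 to 2.51 ± 0.193 CPM per kb (SD, n = 3 per group). So the SoxD genes were all lower, and Sox5, the least abundant of them in control, held a larger share of what remained.

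**Figure D2:**
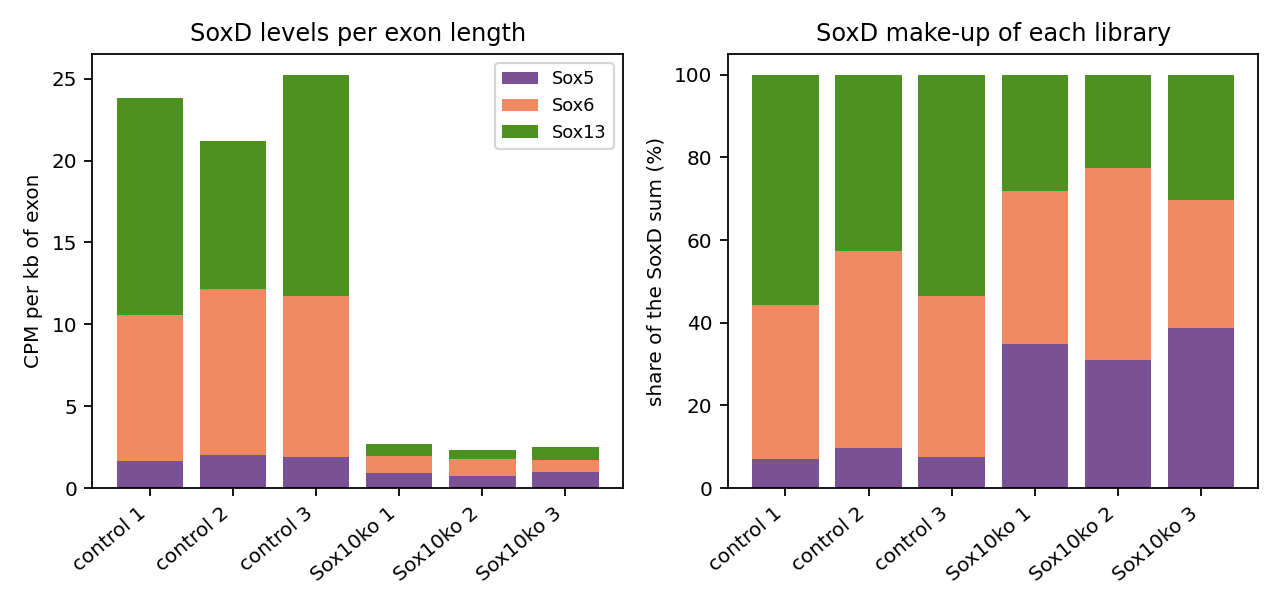
Left, level of Sox5, Sox6 and Sox13 in CPM per kilobase of exon, stacked for each library; right, the share of each gene in that sum in percent. The sum is 21.2 to 25.2 CPM per kb in the control libraries and 2.33 to 2.72 in the Sox10ko libraries, and the Sox5 share lies above 30% in Sox10ko alone.

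Ranked by level per kilobase of exon in control, the order was Sox2 (104.9 ± 7.07 CPM per kb), Sox4 (18.6 ± 1.44), Sox13 (12.0 ± 2.51), Sox6 (9.60 ± 0.646) and Sox5 (1.87 ± 0.186), all with n = 3. Sox13 and Sox6 overlapped between libraries, and the other neighbours did not. In Sox10ko the order was Sox2 (22.8 ± 4.33 CPM per kb), Sox4 (9.59 ± 3.52), Sox6 (0.955 ± 0.161), Sox5 (0.876 ± 0.134) and Sox13 (0.681 ± 0.133). Among the last 3, neighbours overlapped between libraries. Exon lengths join all annotated transcripts, and with the longest transcript alone Sox6 (16.4 CPM per kb in control) stood above Sox13 (13.95), and in Sox10ko Sox5 (1.74) above Sox6 (1.63). Sox10, at 202 ± 3.45 CPM per kb in control, was above all 5 genes, and in Sox10ko, at 29.1 ± 8.23, it overlapped Sox2.

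The genes most like the SoxD members came from several families. Col27a1, a fibrillar collagen gene of cartilage, and Ephb2, an ephrin receptor gene, were nearest to Sox6 (0.22 and 0.25 log2 units over the 6 libraries). Adamts17, a metalloprotease gene, and Lrtm1 were nearest to Sox13 (0.17 and 0.23), and Pcdhb22, a protocadherin gene, and Nxpe3 were nearest to Sox5 (0.06 and 0.07). All 6 were lower in Sox10ko, which followed from choosing them by likeness to genes that fell.

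Among the SoxE, SoxF, SoxG and SoxH genes, 3 of 8 were tested. Sox9, the usual partner of the SoxD factors, went the other way, from 0.353, 0.359 and 0.122 CPM in control to 24.8, 3.76 and 15.2 CPM in Sox10ko (log2 fold change 5.71 ± 0.80, edgeR adjusted p = 0.00213). Sox8 had 1 read in control and 69 in Sox10ko. Both SoxE genes passed the filter by their Sox10ko reads alone, which fixed the direction they could take. For the 5 SoxB, SoxC and SoxD genes tested, the lowest count in a library was 97 reads, for Sox13 in Sox10ko replicate 2. Sox7, Sox15, Sox17, Sox18 and Sox30 had at most 9 reads in a group.

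**Figure D3:**
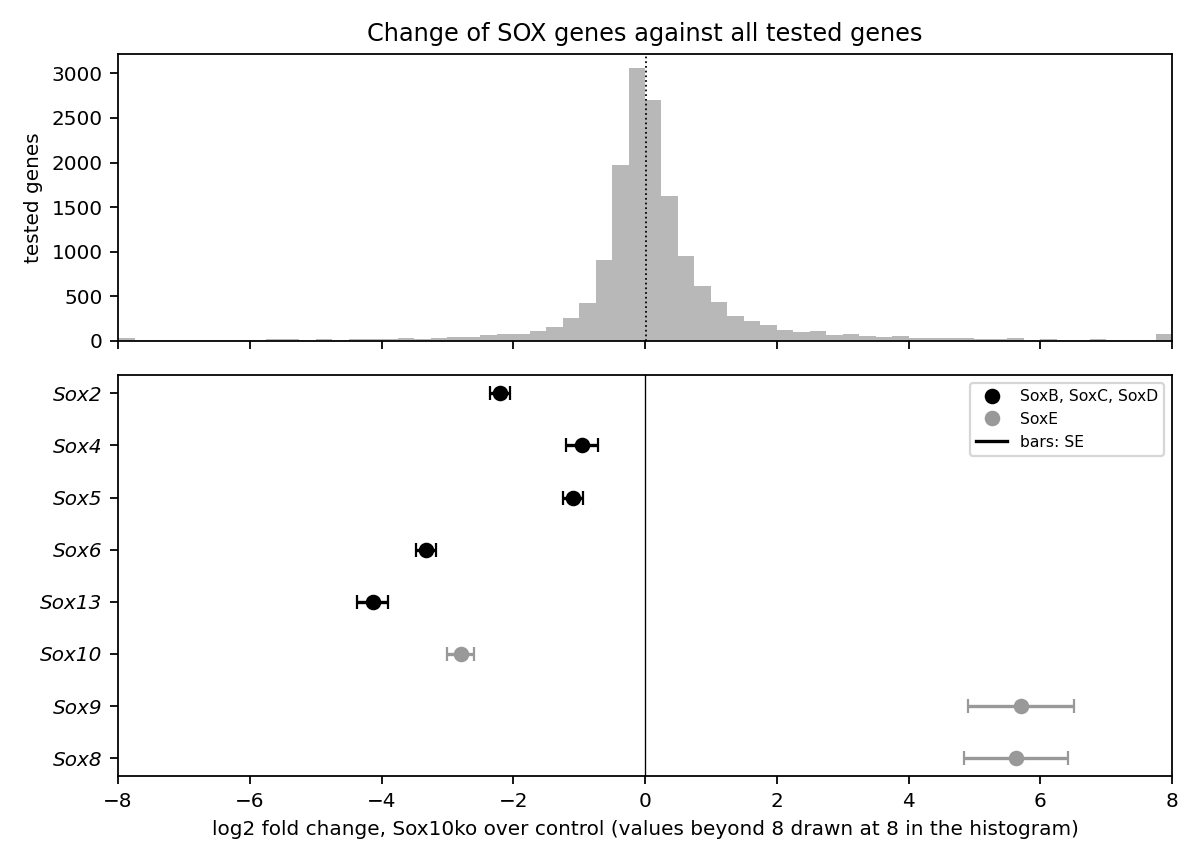
Top, number of tested genes by log2 fold change, Sox10ko over control, with the median as a dotted line; bottom, log2 fold change of each tested SOX gene with its SE. Sox2, Sox4, Sox5, Sox6 and Sox13 lie between -4.14 and -0.96, and Sox8 and Sox9 above 5.

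Genes tied to Sox2 in immature and injured Schwann cells changed in both directions: of 12 tested, 7 fell and 3 rose. Their median log2 fold change was -1.20. Called genes made up 14.7% (lower) and 17.3% (higher) of all tested genes, and no list was tested against these shares. Without control replicate 2, without control replicate 3 or with a replicate block, 6 were called lower and 1 higher. Jun, a transcription factor of the injury response, went down to 95.8 ± 2.30 from 332 ± 20.7 CPM (3.47-fold, edgeR adjusted p = 5.44e-05). Ephb2, the receptor known to raise Sox2 in Schwann cells that meet fibroblasts, was at 18.9, 18.9 and 23.9 CPM in control and 2.07, 2.75 and 2.27 CPM in Sox10ko (8.69-fold lower, edgeR adjusted p = 0.000100). Fn1, the fibronectin gene, rose 24.2-fold, with means of 185 ± 70.1 in control and 4479 ± 1030 CPM in Sox10ko (edgeR adjusted p = 0.000179). Cdh2, the gene of N-cadherin, which Sox2 is known to bring to Schwann cell contacts, was chosen after its values were seen. It was at 450.8, 415 and 404 CPM in control and 181, 322 and 285 CPM in Sox10ko (1.61-fold lower, edgeR adjusted p = 0.0375). The Cdh2 call ended when any single control library was left out (edgeR adjusted p = 0.0794 to 0.0984) or without Sox10ko replicate 3 (adjusted p = 0.0574). With a replicate block it was lost too (edgeR adjusted p = 0.0610).

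Of 17 POU partners and progenitor genes listed for Sox2, 7 were tested, with 2 lower and 3 higher at a median of 0.87 (log2 fold change). The shares over all tested genes were 14.7% lower and 17.3% higher. Klf4, a factor that is used with Sox2 to reprogram cells, rose 5.82-fold, with means of 9.79 ± 3.09 in control and 57.0 ± 14.5 CPM in Sox10ko (edgeR adjusted p = 0.000708). Prom1 summed to 2 control and 43 Sox10ko reads, and Gli2, a Hedgehog effector, to 7 and 101. For Prom1 and Gli2, too, Sox10ko reads alone passed the filter. Leaving out control replicate 3 ended the Gli2 call (edgeR adjusted p = 0.0533). With a mean of at least 5 CPM, 2 genes were lower and 1 higher. Pou3f2, Pou3f3 and Pou3f4 had 0 reads in every library.

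Of 7 genes known as SoxC targets, 3 were tested and 2 were lower, where 14.7% of all tested genes were. Ezh2, a histone methyltransferase gene under Sox4 in other cells, was at 177, 167 and 162 CPM in control and 66.7, 110.6 and 82.8 CPM in Sox10ko (1.95-fold lower, edgeR adjusted p = 0.00685). Tubb3, a neuronal tubulin gene, fell 1.75-fold, with means of 87.9 ± 13.2 in control and 50.2 ± 13.9 CPM in Sox10ko (edgeR adjusted p = 0.0252). Tubb3 no longer passed when control replicate 1 (edgeR adjusted p = 0.0766), control replicate 3 (adjusted p = 0.0847) or Sox10ko replicate 3 (adjusted p = 0.0611) was left out. In Sox10ko replicate 1, where Sox4 was highest, Tubb3 was the highest of the 3 Sox10ko libraries and Ezh2 the lowest. Whether either follows Sox4 was not tested. Isl1, a gene of motor and sensory neurons, did not reach the filter, with 0, 3 and 0 control reads and 194, 7 and 24 Sox10ko reads. Dcx, Prox1 and Pou4f1 had at most 3 reads in a group.

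TGF-beta signalling is known to raise Sox4, and 7 of its genes were tested. Of these, 2 were lower, 1 was higher and 4 did not pass (median log2 fold change -0.27). Among all tested genes 14.7% were lower and 17.3% higher. Tgfbr1, the type I receptor gene, fell 1.42-fold (edgeR adjusted p = 0.00645) and Tgfb2, a ligand gene, 2.01-fold (adjusted p = 0.0135). Tgfbr2, the type II receptor gene, rose 1.58-fold (edgeR adjusted p = 0.0125). Without control replicate 3 the calls of Tgfb2 and Tgfbr2 were lost (edgeR adjusted p = 0.0543 and 0.0691), and without control replicate 1 that of Tgfbr2 (adjusted p = 0.0597).

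Among SoxD corepressors and TCF partners, 9 were tested, with 2 lower and 3 higher at a median of 0.36 (log2 fold change). The same calls took in 14.7% (lower) and 17.3% (higher) of all tested genes. Hdac1, of a histone deacetylase that Sox6 recruits, fell 1.39-fold, with means of 99.5 ± 4.76 in control and 71.7 ± 3.82 CPM in Sox10ko (edgeR adjusted p = 0.00718). Tcf7l1 rose 2.09-fold, with means of 7.51 ± 0.509 in control and 15.7 ± 2.93 CPM in Sox10ko (edgeR adjusted p = 0.00431) and Tcf7l2 from 37.7 ± 2.04 to 55.3 ± 5.20 CPM (1.47-fold, adjusted p = 0.00746). Both are genes of Wnt-responsive TCF factors. The count was 1 lower and 2 higher without control replicate 1 or 3 and with a replicate block.

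Cartilage genes that SoxD factors activate together with Sox9 stayed low. Of 10, 4 were tested, with 0 lower and 1 higher, against 14.7% and 17.3% of all tested genes. The summed level of all 10 was 7.03 to 11.5 CPM in control and 8.18 to 10.6 CPM in Sox10ko. Col11a2, a fibrillar collagen gene, rose 1.78-fold, with means of 3.23 ± 0.283 in control and 5.75 ± 0.832 CPM in Sox10ko (edgeR adjusted p = 0.0176). It no longer passed without control replicate 2 or 3 (edgeR adjusted p = 0.0614 and 0.0842) or with a replicate block (adjusted p = 0.0656). Acan and Hapln1 had at most 9 reads in a group. Also under the filter, Matn1 had 2 control and 35 Sox10ko reads, 27 of them in Sox10ko replicate 3, and Col9a2 had 39 and 8. Neither overlapped between groups. With no low-count filter or with DESeq2, 2 of the cartilage genes were called higher and 0 lower.

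**Figure D4:**
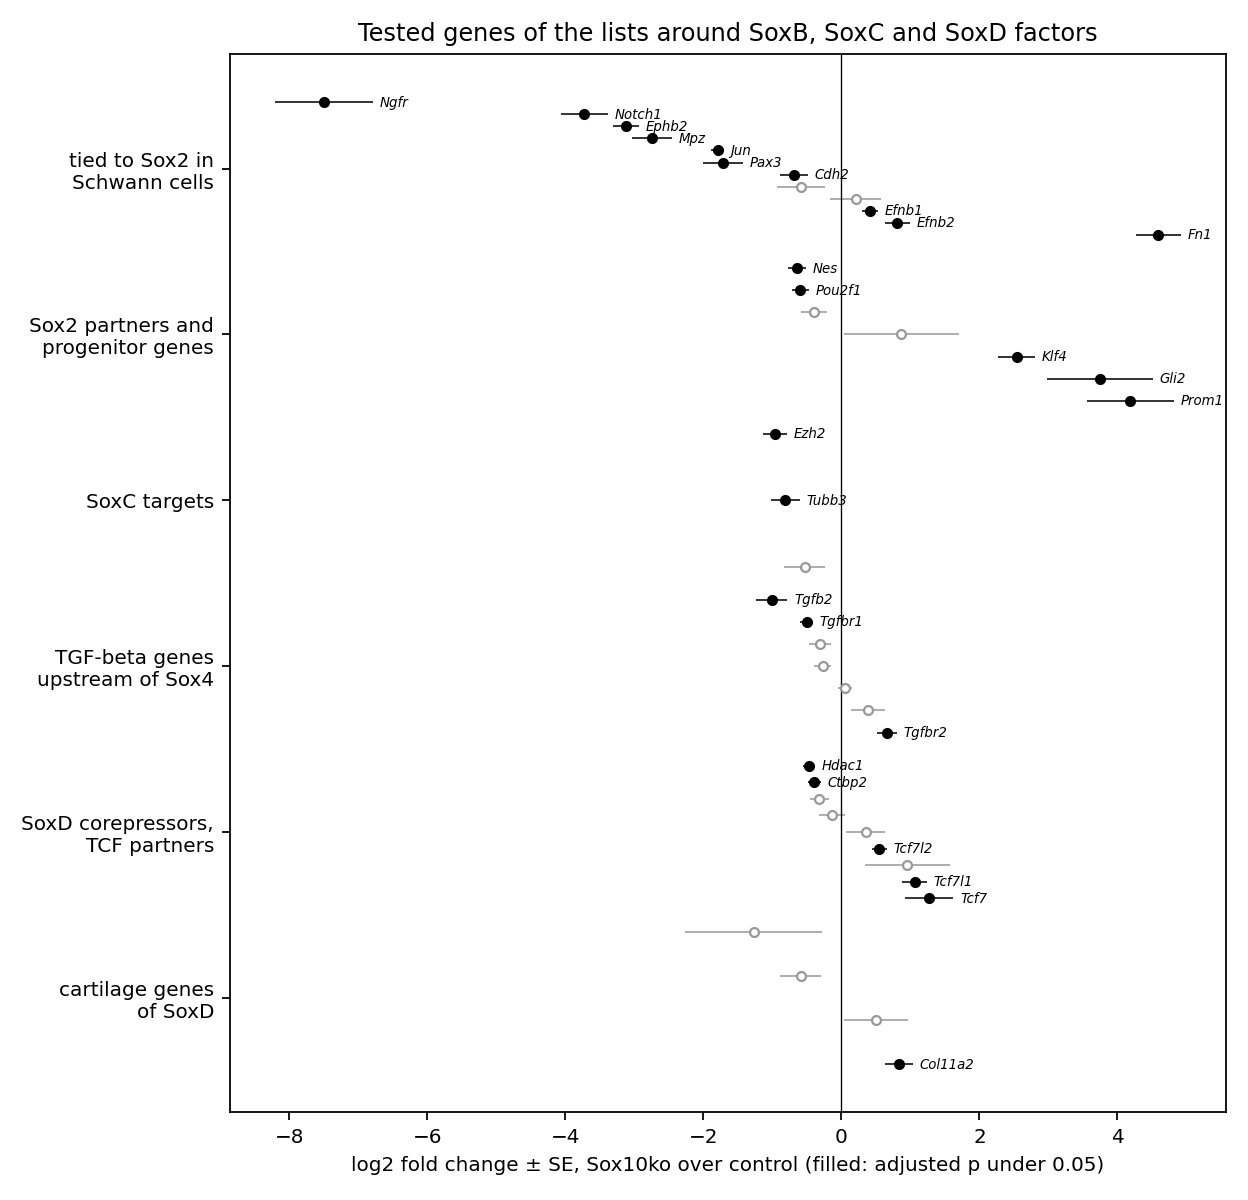
Log2 fold change with its SE, Sox10ko over control, of each tested gene in 6 lists around these factors; filled points are genes with an adjusted p under 0.05, and these carry their names. The list tied to Sox2 spreads from Ngfr at -7.50 to Fn1 at 4.60, while the 3 tested SoxC targets lie between -0.96 and -0.53.

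Genes next to the SOX loci were listed within 500 kb on each side. Around Sox6, 7 neighbours were tested, with 0 lower and 3 higher at a median of 0.16 (log2 fold change), and the nearest, 1110004F10Rik at 0.601 kb, was at 136 against 124 CPM (edgeR adjusted p = 0.223). Around Sox13, 4 of 13 were lower and 1 higher (median -0.34). Etnk2, an ethanolamine kinase gene 1.97 kb from Sox13, had a control mean of 0.584 and a Sox10ko mean of 0.0835 CPM (log2 fold change -2.73, edgeR adjusted p = 0.00474), and it entered the test only through the control libraries. Around Sox5, 2 of 8 were lower and 2 higher, and around Sox4, 1 of 2 was lower, the non-coding 2610307P16Rik. Sox2 had a single tested neighbour, Sox2ot. Median log2 fold changes of the chromosomes that carry the 5 genes lay between -0.04 and 0.10. On these chromosomes 12.4% to 17.2% of tested genes were called lower. The shares over all tested genes were 14.7% lower and 17.3% higher, and whether the neighbours differ from them was not tested.

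**Figure D5:**
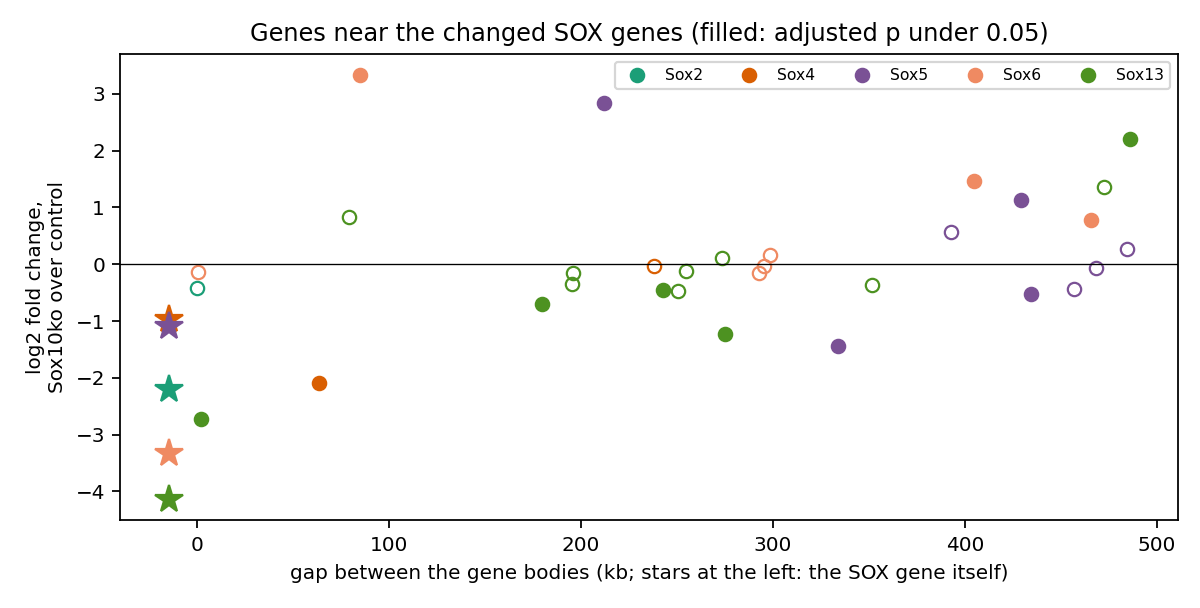
Log2 fold change, Sox10ko over control, of tested genes within 500 kb of each changed SOX gene, against the gap between the gene bodies in kb; stars at the left are the SOX genes, filled circles have an adjusted p under 0.05. The neighbours of Sox6 lie between -0.16 and 3.32, above Sox6 at -3.33.

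Markers of other cell types moved with the genotype beside these falls, and their part in them was not tested. For scale, 14.7% of all tested genes were called lower and 17.3% higher. Fibroblast markers were higher in 3 of 5 tested of 7 listed, with a summed 462 to 587 CPM in control and 1110 to 2316 CPM in Sox10ko, while the defining Dcn and Lum had at most 21 reads in a group. Smooth muscle markers were higher in 4 of 6 (31.0 to 56.3 against 157 to 731 CPM), and epithelial markers in 3 of 3 tested of 6 (0.195 to 0.256 against 77.8 to 105 CPM, nearly all Krt7, with Epcam at 1 read in all). Acta2, Myh11, Cnn1, Krt7, Krt8 and Krt14 passed the filter by their Sox10ko reads alone, so higher was the direction open to them. Krt8 no longer passed without control replicate 1 or 3 (edgeR adjusted p = 0.0615 and 0.0691) or with a replicate block (adjusted p = 0.0584). The epithelial count ran from 1 to 3 over the alternatives. Neuron, chondrocyte, oligodendrocyte and melanocyte markers, of cells in which SOX factors of these subgroups are well known, gave 1 of 5, 0 of 1, 0 of 3 and 1 of 3 tested lower and 0 higher. Their summed levels in control and Sox10ko were 172 to 219 and 118 to 166 CPM for neurons, 0.439 to 1.18 and 0.959 to 1.45 CPM for chondrocytes, 363 to 381 and 346 to 459 CPM for oligodendrocytes, nearly all Cspg4, and 17.6 to 25.4 and 14.2 to 28.8 CPM for melanocytes. Rbfox3 and Olig2 had 0 reads in every library, and Olig1, Mog and Mag had 0 or 1. With no low-count filter or with DESeq2, 1 chondrocyte marker was called higher, and 2 neuron and 2 melanocyte markers lower. With 1 library left out, the neuron count ran from 0 (without control replicate 1 or 3) to 2 lower and 1 higher (without control replicate 2), with 2 lower without Sox10ko replicate 1. The melanocyte call, Mc1r, passed the filter by its control reads alone and no longer passed without control replicate 3 (edgeR adjusted p = 0.0631), while 2 melanocyte markers were lower without control replicate 1, Sox10ko replicate 1 or Sox10ko replicate 2. Leukocyte markers were higher in 1 of 2 tested (5.43 to 7.24 against 9.60 to 13.3 CPM) and endothelial markers lower in 1 of 2 (2.13 to 2.39 against 0.389 to 0.728 CPM). The endothelial call, Cdh5, passed the filter by its control reads alone, and 0 were called without control replicate 3. Cd3e had 0 reads throughout, and Ptprc and Pecam1 had at most 50 in a group.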

How the data were processed

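The data are raw read counts per Ensembl gene, 1 table per library, which the authors deposited as whole numbers. STAR 2.6.0c is named in the submitters' processing notes, along with HTSeq, DESeq2 and the build mm10 (GRCm38), without their roles; per the labels' protocols, libraries came from a stranded mRNA kit. The sources used here give neither annotation release nor strand setting, so genes that overlap are uncertain. Symbols matched 54042 of 54109 IDs. Coordinates and exon lengths are from GENCODE M21 (GRCm38) and promoter windows from RefSeq (GRCm38.p6).

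Genes were filtered with filterByExpr, scaled by TMM and tested with the quasi-likelihood F test of edgeR 4.0.16 (R 4.3.3), two-sided, without covariates, with Benjamini-Hochberg adjustment over 15427 genes and a threshold of 0.05. The standard error is the log2 fold change divided by the square root of F. The step was also run on counts simulated from the edgeR fit itself, which cannot show that the test holds for these cultures. Paralog ratios used a pseudocount of 0.5 and an exact permutation test. They were planned for 6 pairs, and the 3 SoxC pairs were left out because Sox11 and Sox12 lacked reads. Named genes were the 7 members, Sox10, up to 3 called genes per list with the lowest adjusted p, and the 2 nearest patterns (log2 CPM, prior count 2, mean of at least 5 CPM, no predicted gene names). Marker lists are described by their counts. The members and lists were chosen with earlier results of these data known. Alternatives were DESeq2 size factors, library size alone, no filter, genes averaging 5 CPM or more, a replicate block, limma-voom (limma 3.58.1), DESeq2 1.42.0, chromosome medians, and each library left out. No replicates agreed within sampling noise (chi-square per degree of freedom 24.7 to 80.9, genes with at least 10 reads). Depths and floors cover counting error only.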

Additional observations from a re-analysis of the deposited data

How the results depend on the processing

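All 5 tested SoxB, SoxC and SoxD genes were lower under each of the alternatives run, and Sox2, Sox5, Sox6 and Sox13 passed the threshold under each that gave an adjusted p (the highest edgeR adjusted p being 0.00194, 0.0153, 0.000760 and 0.00107, all without control replicate 3). The number of these genes called was 5, and 4 to 5 with 1 library left out, the missing call being that of Sox4. Genes called over the whole table numbered 4939, with 2869 to 4681 when 1 library was left out; without control replicate 3 the count was 2869. They numbered 3375 with a mean of at least 5 CPM, which tests fewer genes. Whether the replicate numbers pair the cultures is not settled here. Deviations of same-numbered libraries from their group means correlated at -0.12, -0.04 and 0.04. Such deviations cancel out over the libraries of a group, so these values cannot exclude a pairing. With a replicate block, 3537 genes and 5 of the SOX genes were called, and the drop of Sox13 was -4.13 log2 units. The shift in Sox6 to Sox5 ran from -2.48 to -2.03 log2 units, that in Sox13 to Sox5 from -3.28 to -2.86 and that in Sox6 to Sox13 from 0.51 to 1.01 with 1 library left out. Depth limits what can be said of Sox11, Sox12 and the other SoxB genes. Where a call was lost, the cause was not tested.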
